A study of Sus scrofa with 18 samples.

Results

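The step examined was the passage of porcine embryos through their second cleavage, with 4-cell embryos set against 2-cell embryos, all derived from oocytes matured in FLI medium. The libraries were chosen by their labels for medium and stage, which gave 3 pools of 4-cell FLI embryos and 3 pools of 2-cell FLI embryos, 6 of the 18 libraries of the series. FLI is a defined maturation medium with FGF2, LIF and IGF1, growth factors that act on the oocyte and the cumulus cells around it. The oocytes came from slaughterhouse ovaries of premature gilts and were activated with ionomycin and 6-DMAP, without sperm, so every embryo of both stages was a parthenote with maternal chromosomes only. No animal or litter is named for a pool. The p-values therefore measure the spread between pools of the same group, estimated over all 18 libraries of the series, and this spread may be technical. The 3 4-cell and 3 2-cell pools of oocytes matured in DMEM, the control medium of the study, served as the reference for the last comparison. By the methods of the study, DMEM also held FGF2, IGF1 and EGF, at other concentrations, and no LIF. After activation, embryos of both groups were grown in the same culture medium.

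A newly activated oocyte is nearly silent in transcription and lives on mRNA and protein stored during its growth. Stored mRNA is then degraded, in part by shortening of its poly(A) tail, while the embryo starts to transcribe its own genes, a passage called embryonic genome activation that in the pig is placed at the 4-cell stage in vivo and can come later in embryos grown in vitro, as those examined here were. Transcripts that fell over the step are therefore sought among genes of the growing oocyte, and transcripts that rose among genes with which an embryo builds ribosomes, RNA and protein and first regulates its lineages.

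Total RNA was sequenced and 20983 genes were counted, with 5123898, 4443893 and 4079290 counts in the 4-cell FLI pools and 3364351, 5683102 and 4720356 counts in the 2-cell FLI pools. Levels are given as CPM, counts scaled to a common library size after TMM normalization, so that each gene is given as a share of its library. Amounts per embryo were not measured, and in pooled embryos fewer cells of a type and less RNA per cell cannot be told apart. A count of 0 over the 3 pools of a stage allows a level of up to 0.230 CPM at the 4-cell stage and 0.208 CPM at the 2-cell stage, for counting error only. The 8 markers fixed for oocytes and cleavage embryos were all measured, with a summed level of 1462 to 2993 CPM in 4-cell FLI pools and 5245 to 5337 CPM in 2-cell FLI pools. Of 13 markers of cumulus and granulosa cells, 10 were in the table, LHCGR and TNFAIP6 were at 0 in all 6 pools and 6 stayed under 1 CPM in each. Their sum was 120 to 177 CPM at the 4-cell stage and 73.3 to 104 CPM at the 2-cell stage. A wider list of 20 such genes had 6 tested, of which NR5A2, STAR and CD44 rose and GREM1 fell, with a sum of 451 to 554 CPM in 4-cell FLI pools and 129 to 152 CPM in 2-cell FLI pools. NR5A2, which early embryos also use, gave 317 to 358 CPM of the 4-cell sum. The part of these cells in the results was not tested.

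More genes rose than fell, and those that rose moved further. Of 13187 genes tested with edgeR's quasi-likelihood test, 4569 (34.6%) were higher and 3593 (27.2%) were lower in 4-cell FLI than in 2-cell FLI embryos at a Benjamini-Hochberg adjusted p under 0.05, and 5025 passed in neither direction. "Rose" and "fell" are used below only of genes past this threshold. Counts in the gene lists below are to be read against these shares of all genes, 34.6% and 27.2%. The median log2 fold change was 2.52 among genes that rose, -1.73 among genes that fell and 0.18 over all genes tested. A change of at least 4-fold was fitted for 2802 genes that rose (21.2% of genes tested) and 1366 that fell (10.4%). At 16-fold and more these numbers were 1208 and 87, and at 64-fold and more 470 and 10. The fitted fold of a gene without counts in 1 stage depends on the model. With such genes placed at the bound that 3 counts set, 1103 genes rose and 75 fell by 16-fold or more, and 368 rose and 0 fell by 64-fold or more.

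The genes that rose gave most of the counts at the 4-cell stage. They took 62.2%, 60.4% and 58.5% of all counts in the 4-cell FLI pools, against 17.4%, 17.1% and 17.9% in the 2-cell FLI pools. The 1208 genes with the largest rises alone took 13.7%, 13.1% and 12.51% of counts at the 4-cell stage, against 0.292%, 0.277% and 0.266% at the 2-cell stage. Genes that fell took 15.3%, 16.2% and 17.1% of counts at the 4-cell stage, against 53.9%, 54.4% and 54% at the 2-cell stage. These shares are a description, since the same pools chose the genes. More genes were detected with at least 1 count at the 4-cell stage, 16033, 15681 and 15518, against 14178, 15115 and 14945 at the 2-cell stage.

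**Figure D1:**
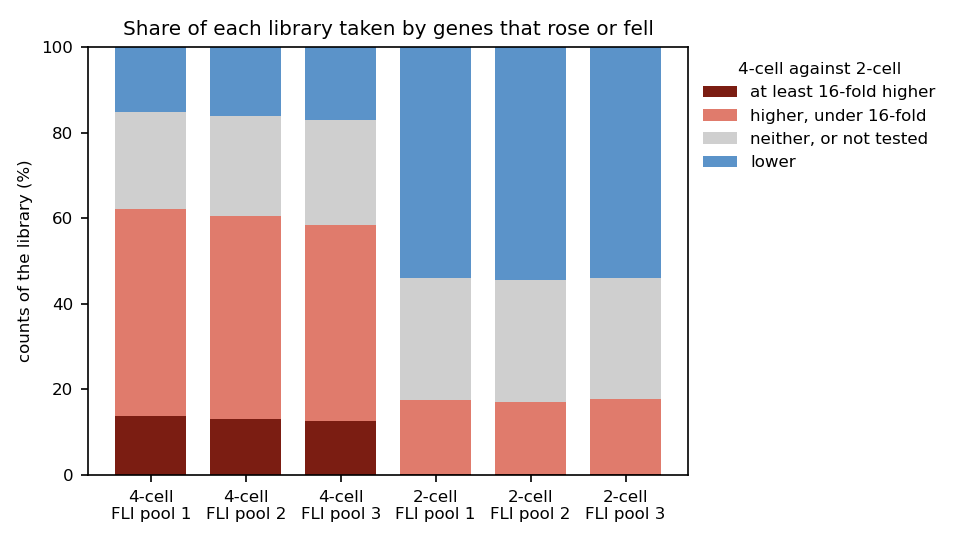
The bars show what share of the counts of each FLI library, in %, fell to genes that rose by at least 16-fold, rose by less, fell, or did neither or were not tested, with the 3 4-cell pools on the left and the 3 2-cell pools on the right. Genes that rose took 58.5% to 62.2% of the 4-cell libraries and 17.1% to 17.9% of the 2-cell libraries.

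Whether a gene rose or fell went with its starting level. To keep the level apart from the FLI counts, genes were sorted by their level in the 2-cell DMEM pools. Of 2137 genes under 1 CPM there, 55.7% rose over the step in FLI and 0.187% fell. The share that rose was lower and the share that fell higher in each class above it, with 17% rising and 52.7% falling among the 2262 genes at 100 to 1000 CPM. Among the 100 genes of highest level, 12 rose and 61 fell, with a median log2 fold change of -1.35. A gene that starts near 0 can hardly be found to fall at this depth, which limits what the lowest class can show. Such a gene also passes the filter on low counts mainly by being higher in other libraries. The share that rose in the lowest class was therefore partly set by that filter.

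**Figure D2:**
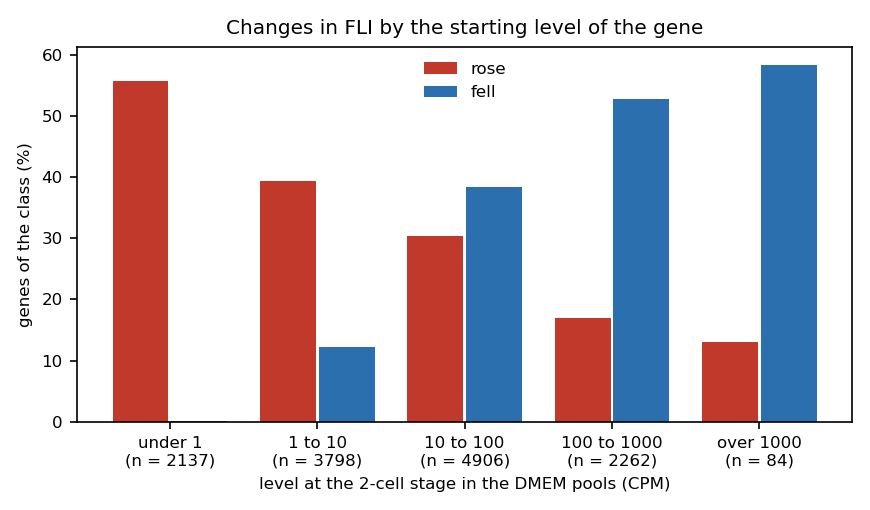
For classes of genes by their level at the 2-cell stage in the DMEM pools (CPM, number of genes in brackets), the bars give the percentage that rose or fell in 4-cell FLI against 2-cell FLI embryos. The share that rose was 55.7% in the class under 1 CPM and 17% at 100 to 1000 CPM, while the share that fell was 0.187% and 52.7%. Genes under 1 CPM pass the filter on low counts mainly when they are higher in other libraries.

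The most abundant nuclear genes were largely different at the stages, mitochondrially encoded genes left aside. By the TPM of the authors, which corrects for gene length, 0 of the 12 most abundant nuclear genes of 1 stage in the deposited table were among the 12 of the other, and 21 of the first 100 were shared. Such ranks depend on the cutoff, and not every gene among the 12 changed much. CALM2, among the 12 at the 4-cell stage, had 2549 ± 330 TPM in 4-cell FLI and 2649 ± 284 TPM in 2-cell FLI embryos. First at the 2-cell stage was DNMT1, the maintenance DNA methyltransferase, at 1612 ± 441 TPM in 4-cell FLI and 16973 ± 1402 TPM in 2-cell FLI embryos (SD, n = 3 each). It was followed by BMP15, a growth factor secreted by the oocyte, by the oocyte linker histone H1-8 and by SIN3A, a scaffold of histone deacetylase complexes. First of the genes in the table at the 4-cell stage was ENSSSCG00000034113, a gene on chromosome 9 (25500051 to 25503695, Sscrofa11.1) to which neither the files nor the reference gives a name, at 28494 ± 285 TPM in 4-cell FLI and 9.46 ± 7.66 TPM in 2-cell FLI embryos. In CPM this gene stood at 15992, 16626 and 17178 CPM at the 4-cell stage, against 8.02, 3.19 and 1.41 CPM at the 2-cell stage. After it came the ribosomal protein RPLP1, the growth-associated protein TPT1, nucleolin (NCL), CDV3 and HENMT1. CDV3 had 3650.1, 3755 and 4762 CPM at the 4-cell stage, against 51.6, 35.1 and 41.6 CPM at the 2-cell stage, with no overlap between the stages.

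Genes switched on over the step had no count in any 2-cell FLI pool and at least 10 counts in every 4-cell FLI pool. There were 97 such genes, 68 of them with a symbol, and the first by CPM, which does not correct for gene length, was SULT1E1 (ENSSSCG00000039341, chromosome 8, 66811550 to 66834473), a sulfotransferase that inactivates estrogens. It had 503, 376 and 216 CPM in 4-cell FLI pools, against 0 CPM in all 3 2-cell FLI pools, at least 1824-fold higher against the limit of 3 counts over the 2-cell pools. ESRRB (ENSSSCG00000002388, chromosome 7, 99514168 to 99699011), an orphan nuclear receptor of the pluripotency network, had 331, 290.0 and 272 CPM in 4-cell FLI pools, against 0 CPM in all 3 2-cell FLI pools. The level of ESRRB was at least 1444-fold higher at the 4-cell stage. The 4-cell pools agreed more closely for ESRRB than for SULT1E1, whose 4-cell pools spread more widely.

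Several further genes of this set serve uptake, signalling or adhesion. CRABP2, which carries retinoic acid to its nuclear receptor, had 131, 117 and 177 CPM at the 4-cell stage, against 0 CPM in all 3 2-cell FLI pools. FOLR1, a folate receptor, had 108, 88.2 and 112 CPM at the 4-cell stage, against 0 CPM in all 3 2-cell FLI pools, and the tight junction protein CLDN8 had 144, 117 and 78.1 CPM at the 4-cell stage, against 0 CPM in all 3 2-cell FLI pools. These 3 genes were at least 668-fold, 492-fold and 559-fold higher. FAM151A, ATXN7L3 (a subunit of the deubiquitinating module of the SAGA coactivator) and MSANTD5 completed the 8 highest named genes, each at least 363-fold higher. Lower in the same set stood the stress factor ATF3 (109, 57.8 and 50.5 CPM at 4-cell against 0 CPM at 2-cell), the receptor FGFR3 (50.001, 45.9 and 47.3 CPM at 4-cell against 0 CPM at 2-cell) and SMAD7, an inhibitor of TGF-beta signalling (40.4, 31.1 and 43.3 CPM at 4-cell against 0 CPM at 2-cell).

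Other genes of large rise had a few counts at the 2-cell stage. RAB3IL1 (ENSSSCG00000013074, chromosome 2, 9577330 to 9599973), an exchange factor for Rab GTPases, had 1049, 996 and 979.9 CPM in 4-cell FLI pools, against 0, 0.168 and 0 CPM in 2-cell FLI pools. The 2-cell value rests on 1 count, and the ratio of levels was 14573 (95% counting interval 2615 to 575654). SLC34A2, a sodium-phosphate cotransporter, had 2639, 2199 and 1662 CPM at the 4-cell stage, against 0.859, 0.168 and 0 CPM at the 2-cell stage, with a log2 fold change of 12.76 ± 0.72 and an adjusted p of 6.94e-11 by edgeR. IGF2BP1, an RNA-binding protein that stabilizes target mRNA, had 585, 386 and 504 CPM at the 4-cell stage, against 0.286, 0.168 and 0 CPM at the 2-cell stage, and its ratio was 3578 (95% counting interval 990.2 to 29553). NR5A2, a nuclear receptor active in early embryos and also in granulosa cells, had 334, 358 and 317 CPM at the 4-cell stage, against 0.286, 0.168 and 0.404 CPM at the 2-cell stage. In none of these 4 genes did a 2-cell pool exceed 1 CPM.

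**Figure D3:**
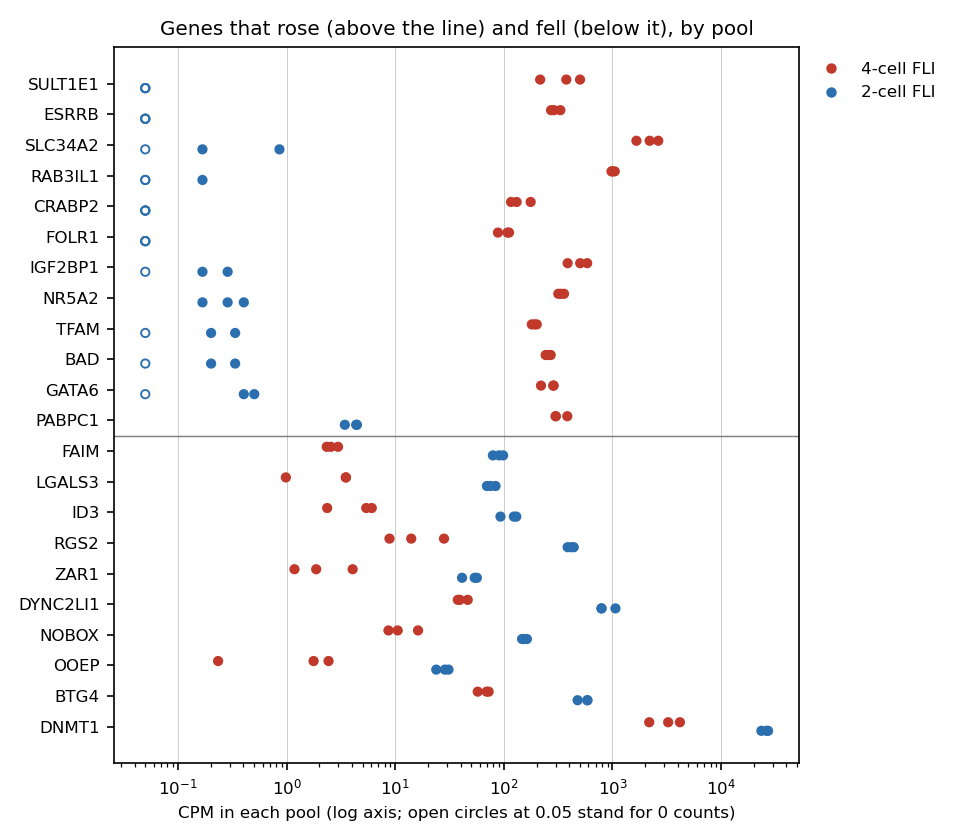
Each point is the CPM of a gene in 1 pool on a log axis, with 4-cell FLI pools drawn above 2-cell FLI pools in each row and open circles at 0.05 standing for 0 counts. The genes were picked largely for their change, which favours the lack of overlap between stages seen in each of them. SULT1E1, ESRRB, CRABP2 and FOLR1 were at 0 in all 3 2-cell pools while no gene that fell reached 0.

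Genes that fell did so by smaller factors and stayed detectable. Of 3881 genes with at least 50 CPM at the 2-cell stage, 0 had fallen to 1% or less of that level and 8 to 5% or less. The largest falls among them were of FAIM, an inhibitor of apoptosis, and LGALS3, a galectin. FAIM had 2.56, 2.34 and 2.97 CPM in 4-cell FLI pools, against 90.5, 98.5 and 79.3 CPM in 2-cell FLI pools, with a log2 fold change of -5.08 ± 0.49 and an adjusted p of 7.39e-08 (edgeR). LGALS3 had 0.984, 3.51 and 3.51 CPM at the 4-cell stage, against 75.3, 83.8 and 69.8 CPM at the 2-cell stage. ID3, an inhibitor of helix-loop-helix transcription factors, had 2.36, 6.08 and 5.41 CPM at the 4-cell stage, against 124, 93.1 and 130.2 CPM at the 2-cell stage, and the regulator of G protein signalling RGS2 had 8.86, 14 and 28.1 CPM at the 4-cell stage, against 415, 387 and 439.9 CPM at the 2-cell stage. DYNC2LI1, a light intermediate chain of the dynein of cilia, had 39.4, 37.7 and 46.5 CPM at the 4-cell stage, against 1065, 791 and 794 CPM at the 2-cell stage. In all of these the 4-cell pools lay at less than 10% of the 2-cell pools. Only 5 genes with 10 or more counts in each 2-cell pool had no count at the 4-cell stage. They were SERF1A, CASQ2, SPDYA, PPP1R1A and SLC13A2, all at 2.32 to 5.18 CPM at the 2-cell stage, and SPDYA, a cell cycle activator that oocytes use in meiosis, was at least 16.3-fold lower.

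Genes that define the oocyte mostly fell. Of 7 oocyte transcription factors tested, 5 fell and 1 rose, with a median log2 fold change of -2.36 against 0.18 over all genes. NOBOX, a homeobox factor of oocyte growth, had 8.66, 10.5 and 16.2 CPM in 4-cell FLI pools, against 163, 153 and 147 CPM in 2-cell FLI pools. The homeobox factor OTX2 had 155, 166 and 242 CPM at the 4-cell stage, against 908, 979.7 and 989 CPM at the 2-cell stage, and LHX8 had 38.4, 29 and 43.5 CPM at the 4-cell stage, against 105, 113 and 117 CPM at the 2-cell stage. TAF4B, a subunit of the general factor TFIID that is needed in germ cells, went the other way, with 288, 272 and 355 CPM at the 4-cell stage, against 47.5, 49.4 and 48.2 CPM at the 2-cell stage and a log2 fold change of 2.65 ± 0.22. All 4 of these genes had stages that did not overlap, which their choice by small p or direction favours.

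Of 7 members of the subcortical maternal complex and the NLRP family, which are stored in the oocyte cortex, 6 fell and 0 rose. OOEP had 1.77, 0.234 and 2.43 CPM at the 4-cell stage, against 30.9, 23.9 and 28.7 CPM at the 2-cell stage, NLRP5 had 32.1, 56.4 and 64.1 CPM at the 4-cell stage, against 244, 218 and 232 CPM at the 2-cell stage and NLRP9 had 298, 409.8 and 469.8 CPM at the 4-cell stage, against 1705, 1769 and 1966 CPM at the 2-cell stage. Of 4 genes tested for oocyte growth factors and the receptor KIT, 3 fell, among them GDF9 with 109.8, 106 and 173 CPM at the 4-cell stage, against 697, 792 and 739.9 CPM at the 2-cell stage. BMP15 did not pass, with 1243, 1609 and 2627 CPM at the 4-cell stage, against 4105, 3953 and 3987 CPM at the 2-cell stage and an adjusted p of 0.135, although its stages did not overlap. The 4-cell pools of BMP15 differed by over 2-fold among themselves.

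Of 7 genes of the zona pellucida and egg surface, 4 fell and 1 rose. OOSP2 had 1.38, 6.08 and 7.57 CPM at the 4-cell stage, against 80.2, 81.8 and 98.5 CPM at the 2-cell stage, and ASTL, the protease that hardens the zona, had 23.2, 36.3 and 37.3 CPM at the 4-cell stage, against 149.5, 119.8 and 139 CPM at the 2-cell stage. CD9, a tetraspanin of the egg membrane that somatic cells also use, was the exception and belonged to the genes without a count at the 2-cell stage, with 41.3, 48.9 and 37.6 CPM at 4-cell against 0 CPM at 2-cell. The level of CD9 at the 4-cell stage was at least 205-fold higher.

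Genes that hold stored mRNA silent or stable fell more often than they rose. Of 20 genes of translation control tested, 10 fell and 6 rose (median log2 fold change -1.21). ZAR1, which binds stored mRNA in the oocyte, had 1.18, 1.87 and 4.05 CPM in 4-cell FLI pools, against 41.2, 56.5 and 53.9 CPM in 2-cell FLI pools. CPEB1, which directs poly(A) tail length of stored mRNA, had 22.6, 19.2 and 24.9 CPM at the 4-cell stage, against 195, 189.5 and 191 CPM at the 2-cell stage. Those that rose included IGF2BP1, described above, and both LSM14A (454, 443 and 448 CPM at 4-cell against 179, 175 and 183 CPM at 2-cell) and LSM14B (68.7, 82.6 and 90.6 CPM at 4-cell against 30.6, 20.2 and 19.2 CPM at 2-cell), proteins of cytoplasmic mRNA granules. Genes of deadenylation and mRNA decay were divided, with 9 of 27 higher and 9 lower, shares of 33.3% each that lie near those of all genes. The scaffold CNOT1 rose (639, 592 and 602 CPM at 4-cell against 194, 158 and 187 CPM at 2-cell), as did CNOT9 (103, 141 and 141 CPM at 4-cell against 18.6, 12.3 and 15.1 CPM at 2-cell), while BTG4, which brings the CCR4-NOT deadenylase to maternal mRNA, fell to 57.5, 69.5 and 72.4 CPM at 4-cell against 588, 478 and 587 CPM at 2-cell.

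For many such functions the genome holds a copy used mainly in oocytes and another used broadly. The pairs were chosen with earlier results of these data known, so their counts are a description. Of 19 such pairs described, 15 had both members tested. The oocyte member fell in 9 and rose in 2, and the broad member rose in 10 and fell in 3. Of all genes tested, 34.6% rose and 27.2% fell. In 5 pairs the oocyte member fell and the broad member rose. The change of the broad member lay above that of the oocyte member in 13 of 15 pairs, with median log2 fold changes of -1.43 for oocyte members and 1.32 for broad members.

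Among poly(A)-binding proteins, PABPC1L, the oocyte form, had 72, 92.7 and 133 CPM at the 4-cell stage, against 289, 247 and 267 CPM at the 2-cell stage, and PABPC1, the form of somatic cells, had 384, 299.8 and 301 CPM at the 4-cell stage, against 3.44, 4.37 and 4.44 CPM at the 2-cell stage. Of the cold shock proteins that coat mRNA, YBX2 had 126, 121 and 146 CPM at the 4-cell stage, against 654, 643 and 718 CPM at the 2-cell stage and YBX1 had 2409, 2753 and 2889.9 CPM at the 4-cell stage, against 751, 807 and 858 CPM at the 2-cell stage. Of the cap-binding proteins, EIF4E1B had 19.9, 29 and 29.5 CPM at the 4-cell stage, against 176, 166 and 136 CPM at the 2-cell stage and EIF4E had 142, 139 and 122 CPM at the 4-cell stage, against 66.4, 71.7 and 83.1 CPM at the 2-cell stage. In each of these pairs 1 member fell and the other rose, without overlap of stages in either. The fall of PABPC1L was the least firm of them, with an adjusted p of 0.0351 that failed to pass in 5 of 15 alternative settings.

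Among antiproliferative proteins the exchange was between BTG4 and BTG1, which had 98, 112 and 80.6 CPM at the 4-cell stage, against 3.15, 1.18 and 2.82 CPM at the 2-cell stage. The decapping activator PATL1 and its oocyte form PATL2 also diverged. PATL2 had 57.9, 91.5 and 112 CPM at the 4-cell stage, against 564, 600.0 and 575 CPM at the 2-cell stage. PATL1 had 185, 198 and 189 CPM at the 4-cell stage, against 149, 127 and 119 CPM at the 2-cell stage. The call of PATL2 failed to pass in 1 of 15 alternatives and that of PATL1 in 6 of 15. Among cohesin subunits the broad member rose alone. STAG2 had 829, 761 and 943 CPM at the 4-cell stage, against 82.2, 70.7 and 66.8 CPM at the 2-cell stage and STAG3 had 9.25, 18.5 and 12.7 CPM at the 4-cell stage, against 11.7, 10.8 and 12.9 CPM at the 2-cell stage, with an adjusted p of 0.765. The kinase WEE1 rose to 13.6, 16.4 and 14.6 CPM at 4-cell against 0.859, 0.336 and 0.605 CPM at 2-cell, while its oocyte form WEE2, at 671, 1129.9 and 1240.2 CPM at 4-cell against 2277, 2235 and 2159 CPM at 2-cell, did not pass (adjusted p 0.111). Both importins of another pair fell, KPNA7 with 119, 180.2 and 188 CPM at 4-cell against 1425, 1387 and 1381 CPM at 2-cell and KPNA2 with 306, 387 and 423 CPM at 4-cell against 927, 1115 and 1179 CPM at 2-cell. Both members rose for LSM14B and LSM14A and for the helicases DDX4 and DDX3X.

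**Figure D4:**
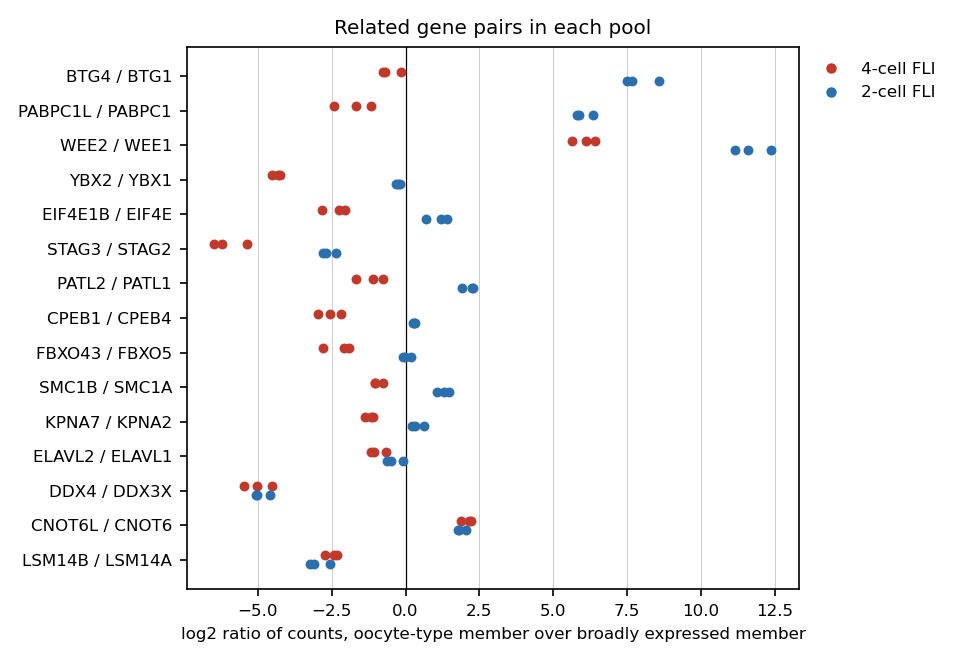
For each of 15 pairs the points give the log2 ratio of counts of the oocyte-type member over the broadly expressed member in each pool (0.5 counts added to both), with 4-cell FLI pools above 2-cell FLI pools in each row. In 13 pairs the fitted change moved the ratio to lower values at the 4-cell stage, and LSM14B / LSM14A and CNOT6L / CNOT6 were the exceptions.

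Germ line genes of meiosis and of the piRNA pathway, which silences transposons, fell in the majority of those that changed. Of 22 meiosis genes tested, 10 fell (45.5%, against 27.2% of all genes) and 5 rose (22.7%, against 34.6%). Only 3 rose without 2-cell FLI replicate 1 or without 4-cell FLI replicate 1 or 2. MOS, the kinase that holds oocytes at metaphase II, had 16.5, 36.7 and 45.4 CPM at the 4-cell stage, against 345, 377 and 349 CPM at the 2-cell stage, and PDE3A, the phosphodiesterase of meiotic resumption, had 14.4, 18 and 31.1 CPM at the 4-cell stage, against 85.1, 91.4 and 86.8 CPM at the 2-cell stage. SYCP3 and SYCP2 of the synaptonemal complex rose, SYCP3 with 210.4, 204 and 192 CPM at 4-cell against 62.2, 61.8 and 69 CPM at 2-cell. Of 17 piRNA genes, 10 fell (58.8%) and 5 rose (29.4%). MAEL had 7.28, 5.62 and 6.22 CPM at 4-cell against 95.7, 113 and 129.7 CPM at 2-cell and PIWIL3, an Argonaute protein of oocytes, had 104, 101 and 103 CPM at 4-cell against 524, 462 and 470.4 CPM at 2-cell. HENMT1, the methyltransferase of piRNA ends, went the other way to 1641, 1595 and 1582 CPM at 4-cell against 318, 358 and 394 CPM at 2-cell, and PIWIL2, ASZ1, DDX4 and PLD6 also rose.

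The machinery for RNA and protein rose broadly. Of 69 genes of ribosome assembly and the RNA exosome, 58 rose and 5 fell, or 3 without 2-cell FLI replicate 2 or 3, with a median log2 fold change of 2.57. PNO1, a factor of small subunit assembly, had 129, 144 and 87.6 CPM in 4-cell FLI pools, against 0.573, 0.168 and 0 CPM in 2-cell FLI pools, a ratio of 587 (95% counting interval 201 to 2851). NOC2L had 261, 308 and 246 CPM at the 4-cell stage, against 4.30, 1.85 and 2.22 CPM at the 2-cell stage and RRP8 had 107, 128 and 122 CPM at the 4-cell stage, against 5.44, 5.21 and 5.85 CPM at the 2-cell stage. Of the 5 that fell, LTV1 had 491, 525 and 576 CPM at the 4-cell stage, against 1637, 1583 and 1466 CPM at the 2-cell stage and UTP11 had 174, 162 and 192 CPM at the 4-cell stage, against 457, 488 and 519 CPM at the 2-cell stage, both assembly factors of the small subunit.

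Of 61 splicing factors, 45 rose and 6 fell (median 1.40), and of the falls 2 were left without 2-cell FLI replicate 2 and 3 without 2-cell FLI replicate 3. The helicase DHX15 had 308, 311 and 338 CPM at 4-cell against 3.72, 6.72 and 4.44 CPM at 2-cell, the SR proteins SRSF2 and SRSF6 had 217, 262 and 236 CPM at 4-cell against 13.2, 13.9 and 13.1 CPM at 2-cell and 318, 321 and 398 CPM at 4-cell against 8.31, 5.71 and 5.85 CPM at 2-cell, and the core Sm protein SNRPB had 176, 178 and 239 CPM at 4-cell against 6.30, 6.05 and 7.87 CPM at 2-cell. PRPF4 and CDC5L were the firmest falls, CDC5L with 251, 266 and 279 CPM at 4-cell against 434, 437 and 438 CPM at 2-cell. Of 19 cytosolic aminoacyl tRNA synthetases, 14 rose and 2 fell, or 1 without 2-cell FLI replicate 2 or 3 or 4-cell FLI replicate 3. QARS1 had 78.2, 74.9 and 66.5 CPM at 4-cell against 1.72, 0.840 and 1.61 CPM at 2-cell and NARS1 had 729.5, 543 and 742 CPM at 4-cell against 164, 153 and 161 CPM at 2-cell, while LARS1 fell, with 92.3, 85.7 and 72.2 CPM at 4-cell against 184, 174 and 157 CPM at 2-cell.

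Genes of protein breakdown and folding changed as well. Of 30 proteasome subunits, 21 rose and 2 fell (median 1.11), with PSMD7 at 274, 249 and 282 CPM at 4-cell against 25.8, 26 and 27.4 CPM at 2-cell and PSMB7 at 163, 158 and 159 CPM at 4-cell against 12.3, 9.07 and 5.65 CPM at 2-cell. PSMA7 and PSMD3 fell, PSMA7 to 190.4, 167 and 201 CPM at 4-cell against 338, 356 and 389.6 CPM at 2-cell. Of 13 genes of the TRiC chaperonin and prefoldin, 8 rose and 3 fell, TCP1 with 343, 248 and 238 CPM at 4-cell against 59.3, 68.7 and 60.7 CPM at 2-cell and PFDN4, which fell, with 7.68, 5.15 and 7.84 CPM at 4-cell against 49.6, 43.2 and 50.2 CPM at 2-cell. Heat shock proteins were divided, with 14 of 29 higher and 7 lower. The constitutive chaperone HSPA8 had 2068, 1682 and 1769.8 CPM at the 4-cell stage, against 179, 140.0 and 155 CPM at the 2-cell stage, whereas its co-chaperone DNAJA1 had 607, 656 and 919.6 CPM at the 4-cell stage, against 1690.4, 1891 and 2059 CPM at the 2-cell stage and the cytosolic HSP90AB1 had 320.1, 379 and 588 CPM at the 4-cell stage, against 899.9, 911 and 821 CPM at the 2-cell stage.

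Nuclear transport changed its receptors. Of 55 genes of the nuclear pore and transport, 30 rose and 12 fell (median 0.72). The importins KPNA4 (176, 165 and 174 CPM at 4-cell against 2.00, 5.71 and 5.65 CPM at 2-cell), IPO5 (491, 410.0 and 358 CPM at 4-cell against 17.2, 17.3 and 15.3 CPM at 2-cell) and IPO7 (298, 325 and 327 CPM at 4-cell against 33.8, 42.3 and 34.1 CPM at 2-cell) rose, while KPNA7 and KPNA2 fell, as given above. Of the pore proteins that fell, NUP42 had 17.7, 13.6 and 21.9 CPM at 4-cell against 78.2, 83.7 and 77.1 CPM at 2-cell and NUP107 had 102, 97.1 and 105 CPM at 4-cell against 192, 198 and 211 CPM at 2-cell.

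**Figure D5:**
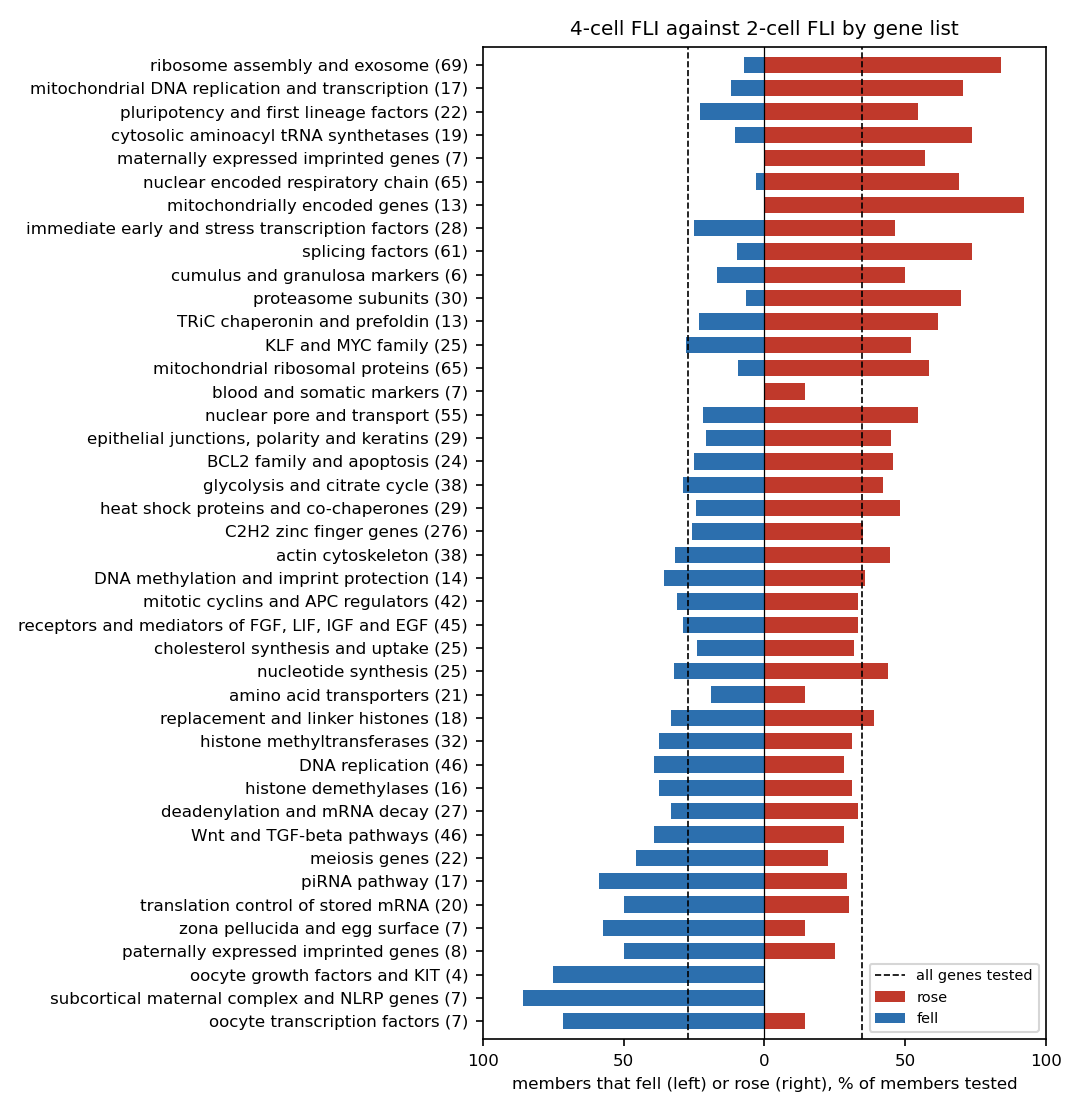
For 42 gene lists, sorted by median log2 fold change with the number of tested members in brackets, bars give the percentage that rose (right) or fell (left) in 4-cell FLI against 2-cell FLI embryos, and dashed lines give the 34.6% and 27.2% of all genes tested. Ribosome assembly genes stand at the top, with 58 of 69 higher, and oocyte transcription factors at the bottom, with 5 of 7 lower.

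Mitochondrial genes of both genomes rose. All 13 genes of the mitochondrial genome had a higher mean at the 4-cell stage and 12 passed the test (median 1.57). COX1, a catalytic subunit of complex IV, had 10740.4, 13193 and 14272 CPM at the 4-cell stage, against 3697, 4063 and 4941 CPM at the 2-cell stage, and ATP6 had 6437, 8052 and 6650.0 CPM at the 4-cell stage, against 2101, 1605 and 2253 CPM at the 2-cell stage. The 13 genes took 5.99%, 6.73% and 6.54% of counts in 4-cell FLI pools, against 2.71%, 2.24% and 3.14% in 2-cell FLI pools. Of 65 nuclear genes of the respiratory chain, 45 rose and 2 fell (median 1.73), with COX4I1 at 420.3, 349.6 and 317 CPM at 4-cell against 14, 12.4 and 10.9 CPM at 2-cell and NDUFV1, of complex I, at 80.1, 79.6 and 61.9 CPM at 4-cell against 0.573, 0.336 and 0.605 CPM at 2-cell. Of 65 mitochondrial ribosomal proteins, 38 rose and 6 fell (median 1.02). MRPL28 had 150.4, 142 and 125 CPM at 4-cell against 6.59, 6.55 and 6.66 CPM at 2-cell, and MRPS14 was the largest fall among them, with 29.3, 22.7 and 34.1 CPM at 4-cell against 346, 367 and 338 CPM at 2-cell.

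The factors that copy and transcribe mitochondrial DNA rose with these genes. Of 17 tested, 12 rose and 2 fell (median 2.47), and the fall of POLG2, an accessory subunit of the replicative polymerase, failed to pass in 5 of 15 alternatives, with the replicate block, without 2-cell FLI replicate 1 or 3 and without 4-cell FLI replicate 1 or 2. TFAM, which packages mitochondrial DNA and starts its transcription, had 192, 181 and 201 CPM in 4-cell FLI pools, against 0, 0.336 and 0.202 CPM in 2-cell FLI pools, a ratio of 916 (95% counting interval 313 to 4443). POLRMT, the mitochondrial RNA polymerase, had 99.8, 113 and 84.1 CPM at the 4-cell stage, against 0.859, 1.18 and 1.61 CPM at the 2-cell stage, the replicative polymerase POLG had 58.5, 57.1 and 53.8 CPM at the 4-cell stage, against 2.58, 3.70 and 1.82 CPM at the 2-cell stage and the helicase TWNK had 105, 131 and 156 CPM at the 4-cell stage, against 12, 11.8 and 11.5 CPM at the 2-cell stage. No pair of stages overlapped for these 4 genes, which their choice by small p favours. MTERF3, a repressor of mitochondrial transcription in mammals, fell, with 34.6, 22.5 and 29.5 CPM at 4-cell against 47.3, 50.1 and 51.7 CPM at 2-cell.

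Chromatin genes did not move as 1 group. Of 14 genes of DNA methylation and imprint protection, 5 rose and 5 fell (35.7% each, against 34.6% and 27.2% of all genes). DNMT1 had 2179, 3256 and 4177 CPM at the 4-cell stage, against 27078, 26197 and 23481 CPM at the 2-cell stage, and its partner UHRF1 had 139, 170.4 and 253 CPM at the 4-cell stage, against 765, 769 and 648 CPM at the 2-cell stage. TET3, the dioxygenase of the zygote that oxidizes methylcytosine, fell to 89.96, 126 and 130.3 CPM at 4-cell against 446, 340.1 and 346 CPM at 2-cell. The glycosylase TDG, which removes oxidized methylcytosine, had 55.9, 80.7 and 109 CPM at the 4-cell stage, against 0.286, 0 and 0 CPM at the 2-cell stage, a ratio of 1137 (95% counting interval 204 to 44968). ZFP57 (77.6, 56.6 and 86 CPM at 4-cell against 1.43, 0.336 and 0 CPM at 2-cell) and TRIM28 (306, 257 and 206 CPM at 4-cell against 53, 53.3 and 50.6 CPM at 2-cell), which together protect imprints, both rose.

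Of 32 histone methyltransferase genes, 10 rose (31.25%, against 34.6% of all genes) and 12 fell (37.5%, against 27.2%). SETD2, which writes H3K36 trimethylation, had 331, 410.5 and 486 CPM at 4-cell against 16, 16.1 and 18.8 CPM at 2-cell. Of Polycomb complex 2, EED had 142, 126 and 115 CPM at 4-cell against 0, 1.85 and 0 CPM at 2-cell and SUZ12 had 70.9, 59 and 58.4 CPM at 4-cell against 14.3, 14.3 and 18.2 CPM at 2-cell. The catalytic subunit EZH2 also rose, with 248, 196 and 197 CPM at 4-cell against 121, 133 and 124 CPM at 2-cell, a call that was lost without 4-cell FLI replicate 1. Of the genes that fell, EHMT2, which writes H3K9 dimethylation, had 50.001, 29 and 35.4 CPM at 4-cell against 189, 152 and 143 CPM at 2-cell and SETDB1, which writes H3K9 trimethylation, had 75.4, 111 and 133 CPM at 4-cell against 459, 496 and 399.9 CPM at 2-cell. Among 18 replacement histones, linker histones and their chaperones, 7 rose (38.9%) and 6 fell (33.3%). The variants H2AZ1 and H2AZ2 rose, H2AZ1 with 242, 294 and 271 CPM at 4-cell against 6.87, 6.05 and 8.47 CPM at 2-cell and H2AZ2 with 87, 114 and 65.1 CPM at 4-cell against 3.44, 8.23 and 6.05 CPM at 2-cell. SLBP, which binds the stem loop of replication histone mRNA, fell to 103, 104 and 134 CPM at 4-cell against 488, 505 and 444 CPM at 2-cell, and the oocyte linker histone H1-8 fell to 408, 387 and 559 CPM at 4-cell against 1654, 1229 and 1470.2 CPM at 2-cell. The adjusted p of H1-8 was 0.0206 and failed to pass in 2 of 15 alternatives.

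Transcription factors of the pluripotent and lineage networks rose more often than they fell. Of 22 tested, 12 rose and 5 fell (median 2.11). Next to ESRRB, GATA6 of the primitive endoderm had 287, 285 and 219.8 CPM in 4-cell FLI pools, against 0, 0.504 and 0.404 CPM in 2-cell FLI pools, TFAP2C of the trophectoderm had 403, 361 and 367 CPM at the 4-cell stage, against 17.2, 12.8 and 9.89 CPM at the 2-cell stage and PRDM14 had 55.5, 54.3 and 54.3 CPM at the 4-cell stage, against 0, 0.168 and 0 CPM at the 2-cell stage. NANOG had 34.8, 28.3 and 34.3 CPM at 4-cell against 0, 0.840 and 0 CPM at 2-cell and SOX2 had 80.9, 73.7 and 55.4 CPM at 4-cell against 8.02, 5.04 and 5.04 CPM at 2-cell. Those that fell included GATA4 (30.7, 32.1 and 32.2 CPM at 4-cell against 181, 147 and 159 CPM at 2-cell), the Hippo effector YAP1 (86.6, 98.8 and 94.9 CPM at 4-cell against 337, 331 and 299.6 CPM at 2-cell), DPPA5 (14.8, 19 and 22.7 CPM at 4-cell against 142, 124 and 162 CPM at 2-cell) and LIN28A (26.2, 37.2 and 45.1 CPM at 4-cell against 110.0, 111 and 112 CPM at 2-cell). GATA6 and GATA4, related factors, thus changed in opposite directions.

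Of 25 genes of the KLF family and the MYC network, 13 rose and 7 fell. KLF13 had 197, 228 and 174 CPM at 4-cell against 3.72, 1.68 and 1.21 CPM at 2-cell and KLF10 had 321, 372 and 434 CPM at 4-cell against 1.43, 0.336 and 1.21 CPM at 2-cell. MXD1, which competes with MYC for its partner MAX, fell to 243, 264 and 409.5 CPM at 4-cell against 1524, 1573 and 1459.9 CPM at 2-cell, and MXI1 of the same family to 13.4, 11.7 and 8.92 CPM at 4-cell against 63.9, 63.7 and 52.5 CPM at 2-cell. Of 28 immediate early and stress factors, 13 rose and 7 fell, with MDM2 (34.6, 30.9 and 30.3 CPM at 4-cell against 2.29, 2.69 and 2.62 CPM at 2-cell) and ATF3 higher and with HIF1A (80.9, 81 and 118 CPM at 4-cell against 346, 338 and 343 CPM at 2-cell), EGR1 (13.8, 22.9 and 19.2 CPM at 4-cell against 84.2, 80.8 and 91 CPM at 2-cell) and IER3 (29.1, 27.4 and 30.005 CPM at 4-cell against 236, 214 and 253 CPM at 2-cell) lower. C2H2 zinc finger genes, the largest list, moved close to all genes, with 97 of 276 higher (35.1%) and 71 lower (25.7%). ZNF622 had 373, 421 and 504 CPM at 4-cell against 0.573, 0.672 and 0.807 CPM at 2-cell and ZNF384 had 114, 109 and 128 CPM at 4-cell against 2.29, 1.85 and 1.61 CPM at 2-cell.

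Receptors and mediators of the factors in FLI medium were divided. Of 45 tested genes that receive or relay FGF, LIF, IGF or EGF, 15 rose (33.3%) and 13 fell (28.9%), near the shares of all genes. The sign of their median log2 fold change of 0.14 turned with the scaling. The FGF receptor FGFR3 and the EGF receptor family member ERBB3 (30.1, 26.4 and 21.1 CPM at 4-cell against 0.859, 1.008 and 2.62 CPM at 2-cell) rose, as did the feedback inhibitors SPRY4 (159, 172 and 109 CPM at 4-cell against 7.73, 6.22 and 7.26 CPM at 2-cell) and SOCS2 (131, 122 and 134 CPM at 4-cell against 3.44, 4.70 and 6.66 CPM at 2-cell). IGF1R, the receptor of IGF1, fell to 25.8, 34.6 and 42.7 CPM at 4-cell against 144, 121 and 113 CPM at 2-cell. On the LIF side, LIFR had 24.4, 21.8 and 40.01 CPM at 4-cell against 65.3, 62.3 and 63.8 CPM at 2-cell and its effector STAT3 had 82.9, 142 and 167 CPM at 4-cell against 555, 469.9 and 447 CPM at 2-cell, and both fell.

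Of 46 genes of the Wnt and TGF-beta pathways, 13 rose (28.3%, against 34.6% of all genes) and 18 fell (39.1%, against 27.2%). Their median log2 fold change was -0.60. The ligand WNT3 fell to 9.06, 8.43 and 9.19 CPM at 4-cell against 48.4, 52.6 and 56.7 CPM at 2-cell, and CTNNB1 (beta-catenin), the effector of Wnt signalling, to 102, 104 and 91.4 CPM at 4-cell against 325, 294 and 364 CPM at 2-cell. Next to SMAD7, the nuclear inhibitors SKIL (44.3, 52.2 and 45.1 CPM at 4-cell against 2.29, 1.51 and 2.22 CPM at 2-cell) and TGIF1 (68.7, 47.3 and 48.9 CPM at 4-cell against 0.573, 0.840 and 0 CPM at 2-cell) rose, as did SMAD4 (49.6, 30.4 and 32.4 CPM at 4-cell against 5.73, 8.23 and 8.68 CPM at 2-cell) and the receptor TGFBR1 (44.5, 48 and 36.5 CPM at 4-cell against 10.02, 6.89 and 11.9 CPM at 2-cell). The Wnt receptor FZD4 had 51, 61.8 and 52.4 CPM at 4-cell against 3.44, 5.04 and 3.23 CPM at 2-cell.

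Metabolic genes changed in both directions. Of 38 genes of glycolysis and the citrate cycle, 16 rose and 11 fell. PGAM1 of glycolysis had 186, 171 and 177 CPM in 4-cell FLI pools, against 0.286, 0 and 0.202 CPM in 2-cell FLI pools, a ratio of 1285 (95% counting interval 355 to 10614), and PDHA1, through which pyruvate enters the citrate cycle, had 709, 674 and 532 CPM at the 4-cell stage, against 77.6, 111 and 97.7 CPM at the 2-cell stage. LDHA had 15.2, 9.13 and 10.3 CPM at the 4-cell stage, against 97.7, 75.8 and 89 CPM at the 2-cell stage and the phosphofructokinase PFKP had 22.6, 25 and 33.8 CPM at the 4-cell stage, against 165, 158 and 158 CPM at the 2-cell stage. Of 25 genes of nucleotide synthesis, 11 rose and 8 fell, and the sign of the median turned with the scaling. IMPDH1, of guanine nucleotide synthesis, rose with 457, 389 and 442 CPM at 4-cell against 15.8, 11.3 and 9.28 CPM at 2-cell, and CAD, which starts pyrimidine synthesis, with 159, 146 and 108 CPM at 4-cell against 3.72, 2.52 and 2.02 CPM at 2-cell. Among the genes that fell were TYMS, which makes thymidylate, with 51.8, 44.5 and 47.8 CPM at 4-cell against 296, 319 and 330.3 CPM at 2-cell, and PAICS and PPAT of purine synthesis, with 70.1, 86.4 and 59.2 CPM at 4-cell against 166, 201 and 201 CPM at 2-cell and 32.9, 20.8 and 18.7 CPM at 4-cell against 83.3, 77 and 74.1 CPM at 2-cell.

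Of 25 genes of cholesterol synthesis and uptake, 8 rose (32%) and 6 fell (24%), near the shares of all genes. Only 3 fell without 2-cell FLI replicate 2 or 3 or 4-cell FLI replicate 3. The sign of their median again turned with the scaling. NSDHL had 217, 189 and 157 CPM at 4-cell against 46.7, 55.8 and 50.2 CPM at 2-cell. HSD17B7 had 10.4, 11 and 11.08 CPM at 4-cell against 83.3, 92.7 and 108 CPM at 2-cell, and FDFT1, the squalene synthase, had 619, 601 and 787 CPM at 4-cell against 2360.1, 2288 and 2292 CPM at 2-cell. Of 21 amino acid transporters, 3 rose and 4 fell, or 2 without 2-cell FLI replicate 3, and 14 passed in neither direction. SLC7A5 had 45.7, 32.5 and 26.2 CPM at 4-cell against 8.59, 4.20 and 3.23 CPM at 2-cell, and the glutamine transporter SLC1A5 fell to 35.4, 39.8 and 45.7 CPM at 4-cell against 170.1, 132 and 142 CPM at 2-cell.

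Cell cycle genes were divided too. Of 42 mitotic cyclins and regulators of the anaphase-promoting complex, 14 rose (33.3%) and 13 fell (31%), near the shares of all genes. The sign of their median turned with the scaling. CCNB2 fell to 103, 99.9 and 161 CPM at 4-cell against 482, 561 and 582 CPM at 2-cell and BUB1B to 178, 213 and 229 CPM at 4-cell against 762, 803 and 778 CPM at 2-cell. CDC20 rose to 282, 288 and 267 CPM at 4-cell against 101, 108 and 116 CPM at 2-cell, and CCND2 had 6.89, 14.5 and 25.1 CPM at 4-cell against 0 CPM at 2-cell. Of 46 genes of DNA replication, 13 rose (28.3%, against 34.6% of all genes) and 18 fell (39.1%, against 27.2%). The licensing factor CDC6 fell to 34.3, 29.3 and 39.2 CPM at 4-cell against 173, 190.0 and 186 CPM at 2-cell and GINS2 to 89, 88 and 73.5 CPM at 4-cell against 369, 331 and 349 CPM at 2-cell, while ORC1 rose to 268, 307 and 249 CPM at 4-cell against 65, 63.7 and 59.1 CPM at 2-cell, LIG1 to 175, 159 and 177 CPM at 4-cell against 26.4, 34.1 and 26.2 CPM at 2-cell and TOP2A to 605, 612 and 649.6 CPM at 4-cell against 226, 236 and 204 CPM at 2-cell. The named genes of both lists had stages without overlap, which follows largely from naming members of small p.

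Of 24 genes of the BCL2 family and apoptosis, 11 rose (45.8%, against 34.6% of all genes) and 6 fell (25%, against 27.2%). The proapoptotic BAD had 263, 270.1 and 243 CPM in 4-cell FLI pools, against 0, 0.336 and 0.202 CPM in 2-cell FLI pools, a ratio of 1246 (95% counting interval 426 to 6044). BID had 64.6, 72.1 and 65.4 CPM at the 4-cell stage, against 0.573, 0.504 and 1.009 CPM at the 2-cell stage and BAK1 had 40.6, 33.5 and 53.8 CPM at the 4-cell stage, against 0.286, 0.672 and 0.807 CPM at the 2-cell stage. Of the antiapoptotic members, MCL1 rose to 87.4, 86.6 and 79.5 CPM at 4-cell against 3.72, 3.86 and 2.82 CPM at 2-cell, while BCL2L1 fell to 442, 457 and 508 CPM at 4-cell against 2277, 2145 and 2105 CPM at 2-cell. Both proapoptotic and antiapoptotic members were thus among the genes that rose.

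Among junction and cytoskeleton genes, some members rose while others fell. Of 29 epithelial genes, 13 rose and 6 fell. The desmosomal plakophilin PKP2 had 60.8, 70.9 and 51.6 CPM at the 4-cell stage, against 0, 0.672 and 0.404 CPM at the 2-cell stage. The tight junction proteins TJP1 and OCLN fell, TJP1 to 198, 218 and 224 CPM at 4-cell against 721, 744 and 651 CPM at 2-cell. Of 38 actin cytoskeleton genes, 17 rose, or 11 without 4-cell FLI replicate 2 or 3, and 12 fell. The tropomyosin TPM4 had 45.7, 34.2 and 52.2 CPM at 4-cell against 0.859, 1.18 and 0.404 CPM at 2-cell and TPM1 had 6.10, 4.91 and 4.33 CPM at 4-cell against 44.7, 40.5 and 40.6 CPM at 2-cell. The actin-binding TMSB10 rose to 253, 269 and 393 CPM at 4-cell against 9.17, 6.72 and 6.66 CPM at 2-cell, while the depolymerizing factor DSTN fell to 99.8, 118 and 159 CPM at 4-cell against 702, 675 and 752 CPM at 2-cell.

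Imprinted genes were examined because parthenotes lack a paternal genome. Embryos of both stages were parthenotes, so the step cannot show an effect of that lack. Several members of the lists, among them IGF2, SNRPN, H19 and MEG3, were not found by name. Of 8 paternally expressed genes tested, 4 fell (50%, against 27.2% of all genes) and 2 rose (25%, against 34.6%). PLAGL1 had 4.92, 10.8 and 14.6 CPM at the 4-cell stage, against 114, 119 and 98.3 CPM at the 2-cell stage and MEST had 7.28, 15.9 and 11.08 CPM at the 4-cell stage, against 48.1, 61.8 and 60.9 CPM at the 2-cell stage. PEG3 rose, with 7.68, 13.3 and 8.38 CPM at 4-cell against 2.58, 1.34 and 2.62 CPM at 2-cell. Of 7 maternally expressed genes, 4 rose (57.1%, against 34.6%) and 0 fell. UBE3A, which is imprinted in neurons, had 258, 204 and 276 CPM at the 4-cell stage, against 16.3, 13.8 and 15.3 CPM at the 2-cell stage and PHLDA2 had 7.28, 26.7 and 19.2 CPM at the 4-cell stage, against 1.72, 1.34 and 0.605 CPM at the 2-cell stage.

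The 4-cell FLI pools differed in the level, as a share of the library, of the transcripts that fall. To measure this, 1990 genes were taken that fell over the step in DMEM and had at least 50 CPM in 2-cell DMEM pools, a choice without FLI values. In replicates 1, 2 and 3 of 4-cell FLI these genes stood at a median of 29.8%, 33.3% and 36.4% of their 2-cell DMEM level. The TMM factors of these 3 pools, 0.993, 0.963 and 0.908, enter these levels, so the size of the gap depends on the scaling. In the 2-cell FLI pools the medians were 98.3%, 98.6% and 98.5%. Replicate 1 was the lowest of the 4-cell FLI pools for 57.6% of these genes, and replicate 3 the highest for 55.7%. Of 524 genes that rose at least 16-fold in DMEM and had 50 CPM or more in 4-cell DMEM pools, replicate 3 was the lowest for 44.8%, with medians of 91.6%, 90.5% and 86.1% of the 4-cell DMEM level. DNMT1, BMP15 and WEE2, given above, were likewise lowest in replicate 1 and highest in replicate 3 of the 4-cell FLI pools.

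Most genes that changed over the step in FLI changed in the same direction in DMEM. In DMEM 4636 genes (35.2%) were higher and 3747 (28.4%) lower at the 4-cell stage. Of the genes that rose in FLI, 4183 also rose in DMEM, 91.6% of those in FLI and 90.2% of those in DMEM, and 0 fell. Of the genes that fell in FLI, 3194 also fell in DMEM, 88.9% and 85.2%, and 0 rose. The steps share no library, although 1 fit gave the spread for both. Tested directly, the difference between the step in FLI and the step in DMEM passed for 0 genes in either direction with edgeR, and at an unadjusted p under 0.05 it was higher for 119 and lower for 218 genes. DESeq2 also called 0 genes in both directions, while an edgeR fit of only the 12 libraries of both steps called 3 genes lower. A p that misses the threshold does not show that the steps were equal.

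Genes that rose most were shorter than the rest. The median length of a gene on the genome, introns included, was 13.5 kb for the 1208 genes that rose at least 16-fold, 21.9 kb for all genes that rose, 37.3 kb for genes that fell and 27.8 kb for all genes tested. Length also bears on how many counts a transcript gives, and its part in the result was not tested. By chromosome, the share that rose ran between 25.2% on chromosome 18 and 40.9% on the X chromosome, where 198 of 484 genes tested rose. This leaves aside the mitochondrial genome and the 13 genes annotated on the Y chromosome, of which 3 rose and 2 fell. ENSSSCG00000055885, among the genes without a count at the 2-cell stage, is annotated on the Y chromosome. Parthenotes hold maternal chromosomes only, so the assignment of reads to these genes is uncertain, and their origin was not tested.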

How the data were processed

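Pools of porcine parthenogenetic embryos, 3 for each of 3 stages and 2 media, were sequenced as stranded total RNA. By the methods of the study, the authors mapped reads with bowtie2, computed expression values with Illumina Dragen on build Sscrofa11.1 and used DESeq2, in versions not given in the sources used here. For each library, the deposited table holds a count of reads per gene as the authors made it, not normalized, and the TPM of the authors, scaled for gene length, which was used only to compare levels between genes. Another 36 columns of values per library (RPKM and CPM) were not used. Of 20983 genes, 15498 had a symbol and 193 more were named from the reference. Whether counting used strand is not stated, so overlapping genes, and genes with near-identical copies such as TPT1, RPLP1 and TMSB10, are uncertain.

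All tests were run on these counts with edgeR 4.0.16 in R 4.3.3. The 13187 genes that filterByExpr retained were scaled by TMM and fitted with 6 group means over 18 libraries (glmQLFit, glmQLFTest), with Benjamini-Hochberg adjustment over all tested genes at 0.05. Errors of log2 fold changes are standard errors from the fit. Ratios of genes with 1 to 3 counts at the 2-cell stage have exact intervals, and genes at 0 were set against 3 counts over the group. The tests were tested on simulated data. Alternatives were DESeq2 1.42.0, other scalings, no filter, no mitochondrial genes, only the libraries compared, a replicate block and each FLI pool left out. Python 3.11.15 with pandas 2.3.3, scipy 1.17.1 and matplotlib 3.10.9 made the tables and plots. The files of no pair of replicates differed by less than sampling noise (chi-square per degree of freedom 4.17 to 15.2).

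Genes named are the 12 of largest change in each direction with a symbol and at least 50 CPM in the higher stage, up to 4 members of smallest p in each of 42 lists with members against the direction of most (counted where many), 19 gene pairs, and the 8 highest genes by CPM that had 0 counts in 1 stage. The genes of highest TPM, and NANOG, SOX2, ERBB3, FGFR3, WNT3, CTNNB1, EHMT2 and SETDB1, were added after their values were seen. The lists, pairs and rules were chosen with earlier results of these data known. Some further members of these lists are not reported here.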

Additional observations from a re-analysis of the deposited data

How the results depend on the processing

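The counts of genes that rose or fell stayed within 1.5 times under every one of the 15 alternatives run. Genes higher numbered 4211 to 4755 over the alternatives with all pools, and genes lower 3491 to 4273. Leaving out 1 of the 6 FLI pools at a time gave 3884 to 4140 genes higher and 3080 to 3425 lower, 2527 to 2701 at least 4-fold higher and 1306 to 1627 at least 4-fold lower. The study set 1.5 as the smallest log2 fold change and 0.05 as the largest p, here read as not adjusted. By that standard 3508 genes rose and 2278 fell, with 3227 to 3467 and 2222 to 2570 when 1 pool was left out. The difference between the step in FLI and the step in DMEM called 0 genes in both directions throughout, pools left out included, except that a fit of only the 12 libraries of both steps called 3 genes lower. These were RPL7A (-1.19), RPS2 (-1.42) and a gene known by ID only (-1.73), each with an adjusted p of 0.0317 (edgeR), and the cause was not tested.

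Replicate numbers gave no sign of pairing the samples, as deviations of same-numbered pools of both stages had correlations of -0.0541, -0.000199 and -0.0419. With noisy low counts among the genes, such values cannot exclude a shared oocyte collection, and the labels do not state one. With the replicate number as a block, 4494 genes were higher and 3491 lower, and with the block and only the 6 FLI pools, a setting chosen after seeing the data, 4367 and 4152. The median log2 fold change of all genes shifted by -0.14 with upper quartile scaling and by -0.13 with scaling by library size only. Upper quartile scaling turned the sign of all 4 list medians noted in the text, and scaling by library size turned those of cholesterol and nucleotide synthesis.

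Over 486 named genes and 15 alternatives, 6958 values kept direction and call, 292 lost the call, 20 gained it and 2 turned. Without 4-cell FLI replicate 2, STAG3 was at -0.23 and PTPRC at -0.098. With 1 pool left out, STAG3 ran between -0.23 and 0.28 and PTPRC between -0.098 and 2.17. Neither of these genes passed the test with all pools. In simulated counts with 200 of 13187 genes changed, 54% of 4-fold and 16% of 2-fold rises were called. Of the simulated falls, 64% of 4-fold and 4% of 2-fold changes were called. With so few genes changed, the adjusted threshold is stricter than in the data, where 61.9% of genes passed. The percentages therefore do not give the power of the real comparison. Genes that passed in neither direction may still have changed.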

Other observations

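Neighbouring genes without a name rose together at 2 places, which were picked after their values had been seen. Between positions 44007026 and 44197835 of chromosome 8 (Sscrofa11.1) the table holds 8 genes, all known by ID only, and all 8 passed the test and were higher in 4-cell FLI than in 2-cell FLI embryos. Their means ran between 2.83 and 368 CPM at the 4-cell stage, against 0 CPM in 5 of them and at most 65.1 CPM at the 2-cell stage. Between positions 71957619 and 72050148 of chromosome 2 the table holds 6 genes known by ID only, and all 6 rose, with means of 84.8 to 255 CPM at the 4-cell stage, against at most 0.477 CPM at the 2-cell stage. Of these 6 genes, 3 are annotated with 953 bases and 3 with 1322 bases, all on the same strand. Genes of equal length side by side can be near-identical copies among which reads cannot be assigned with certainty, so their single values are uncertain.

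Of 1488 tested genes known by ID only, 495 rose and 286 fell. Of 15 markers of blood and connective tissue, 14 were in the table, and their sum was 18.3 to 21.1 CPM in 4-cell FLI pools and at most 13.5 CPM in 2-cell FLI pools.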
